A study of Saccharomyces cerevisiae with 15 samples.

Results

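VHR1 (YIL056W), its paralog VHR2 (YER064C) and the 5 genes that bring biotin or its precursors into the cell or make biotin were followed through an RNA-seq study of how budding yeast answers impaired mitochondrial protein import. These 7 genes of 7127 in the count table were taken by name: the transporters VHT1 (YGR065C) and BIO5 (YNR056C), and the synthesis genes BIO3 (YNR058W), BIO4 (YNR057C) and BIO2 (YGR286C). VHR1 was chosen by its measured level, which was raised in cells that overexpress the mitochondrial targeting sequence of Mge1 and not in their pdr3Δ counterparts. Its values in those libraries and in their control are therefore a description, with no test. The other 6 genes were chosen for their known roles, and the comparison asks whether the Pdr3-dependent change of VHR1 was accompanied by a change of its targets VHT1 and BIO5.

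All cells were *Saccharomyces cerevisiae* W303 derivatives, with 3 replicates in each of 5 groups. pdr3Δ cells and cells with *PDR3* overexpressed the targeting sequence of Mge1, a co-chaperone of the mitochondrial matrix, fused to mCherry (MTSMge1-mCherry pdr3Δ and MTSMge1-mCherry). pdr3Δ cells and cells with *PDR3* likewise overexpressed Psd1, an enzyme of the mitochondrial inner membrane (PSD1OE pdr3Δ and PSD1OE). The control, with *PDR3*, overexpressed the targeting sequence of Mss116 fused to mCherry (MTSMss116-mCherry). A *GAL* promoter drove each construct, and 1% galactose was given for 4 h. In the strain list 1 strain stood for each group, *pdr3* was replaced by *HIS3* in both knockouts, and all strains carried mutant *his3* and *ura3* alleles. The list marks a high-copy (2-micron) origin for every construct except that of PSD1OE cells with *PDR3*. The labels instead name an empty high-copy plasmid in every group. The labels give raffinose medium with yeast extract and peptone and the methods a synthetic drop-out medium with raffinose, so the biotin supply of the cultures is not settled by these sources.

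Biotin is the cofactor of carboxylases such as acetyl-CoA carboxylase and pyruvate carboxylase. Many laboratory strains of budding yeast cannot make it from the start and take up biotin or its precursors. When biotin is scarce, Vhr1 activates *VHT1* and *BIO5* through an element known as VHRE. Vht1 is the high-affinity symporter of biotin and protons in the plasma membrane. Bio5 takes up the precursors 7-keto-8-aminopelargonic acid and 7,8-diaminopelargonic acid. Bio3 converts the first of these into the second, Bio4 makes dethiobiotin from it, and Bio2, an iron-sulfur enzyme of mitochondria, inserts the sulfur that completes biotin. Pdr3 is a transcription factor of the pleiotropic drug resistance network and binds the element known as PDRE.

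The sequences below are the stretches upstream of these genes that hold the letters of the VHRE, a related palindrome or the PDRE, read from the RefSeq genome of build R64, which is also the build of the counts. The letters of the VHRE were searched as AATCA and TGACT, or AATCA and TGATT, with 8 bases of any kind between them, on both strands within 1000 bases before the start codon. The first form stood before 10 of 6021 protein-coding genes (0.166%) and the second before 17 (0.282%). The related palindrome of AGTCA and TGACT with the same spacing was searched after the values had been seen and stood before 7 genes (0.116%). The PDRE letters TCCGCGGA stood before 59 genes (0.98%). Capitals mark the letters searched.

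VHT1, chrVII:620085-620144, minus strand, letters 265 bases before the start codon: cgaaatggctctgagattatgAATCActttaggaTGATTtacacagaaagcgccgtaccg

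BIO5, chrXIV:733548-733607, minus strand, letters 283 bases before the start codon: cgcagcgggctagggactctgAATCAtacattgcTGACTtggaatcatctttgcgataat

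BIO2, chrVII:1065292-1065351, minus strand, letters 390 bases before the start codon: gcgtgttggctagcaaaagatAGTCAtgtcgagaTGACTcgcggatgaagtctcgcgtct

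BIO3, chrXIV:733886-733945, plus strand, letters 384 bases before the start codon: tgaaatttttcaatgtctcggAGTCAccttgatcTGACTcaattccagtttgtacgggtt

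VHR1, chrIX:249235-249284, plus strand, letters 735 bases before the start codon: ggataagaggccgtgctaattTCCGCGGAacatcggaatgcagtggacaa

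*VHT1* and *BIO5*, the known targets, held the VHRE letters at similar distances from their start codons, 265 and 283 bases. Since Vhr1 is already known to act on these genes through the VHRE, their matches are no new result. *BIO2* held the AGTCA palindrome. *BIO3*, *BIO4* and *BIO5* lie side by side on chromosome XIV. *BIO4* and *BIO5* share a strand, with 52 bases between them, and *BIO3* faces away from *BIO4* across 221 bases. As a result the letters before *BIO5* fall inside the coding sequence of *BIO4*. The same site is 722 bases before *BIO3* on the other strand, and the palindrome before *BIO3* is 621 bases before *BIO5*, also inside *BIO4*. *BIO4* and *VHR2* held none of the letters searched, and no member held the other PDRE letters searched, TCCGTGGA or its reverse complement, which stood before 131 genes (2.18%). A match of letters is no evidence of binding.

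Total counts ran from 9128344 to 15953662 per library, and 6251 genes had enough counts to be followed over the 15 libraries. Levels are given as CPM, the counts per 1000000 counts of a library after its size was scaled by the TMM method. *PDR3* fitted the labels, with 0 or 1 counts in each of the 6 pdr3Δ libraries and 921 to 4469 in the 9 others. One library stood apart in the genes studied here. In PSD1OE pdr3Δ replicate 3, *VHT1*, *BIO5*, *BIO2*, *BIO3* and *BIO4* were far below all 14 other libraries, and comparisons of these genes that use it are also given without it.

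*VHR1* had 85.8, 87.4 and 94.5 CPM in MTSMge1-mCherry pdr3Δ cells, against 244, 269 and 241 CPM in MTSMge1-mCherry cells. In PSD1OE pdr3Δ cells it had 93.6, 81.4 and 75.1 CPM, against 161, 166 and 148 CPM in PSD1OE cells. MTSMss116-mCherry cells had 95.3, 103 and 86.4 CPM. The gene was thus highest with MTSMge1-mCherry, lower with PSD1OE, and in both knockouts within or near the range of the control. The group means followed the order MTSMge1-mCherry (251 ± 14.98 CPM), PSD1OE (158 ± 9.44), MTSMss116-mCherry (94.8 ± 8.12), MTSMge1-mCherry pdr3Δ (89.2 ± 4.63) and PSD1OE pdr3Δ (83.4 ± 9.41; SD, n = 3 each). The last 3 groups overlapped, and the first 2 overlapped with no other group.

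As a description, *VHR1* was 2.67-fold of the MTSMss116-mCherry level in MTSMge1-mCherry cells (95% interval 2.27 to 3.15), and 1.69-fold in PSD1OE cells (1.44 to 1.97). Its log2 fold change for MTSMge1-mCherry pdr3Δ over MTSMge1-mCherry was -1.50 (SE 0.0915). The PSD1OE pair was not the stated basis for the choice of *VHR1*, but its direction was known from earlier results of these data. The adjusted p-values of *VHR1* in that pair are therefore a description too and no independent test. There *VHR1* fell in PSD1OE pdr3Δ over PSD1OE, with a log2 fold change of -0.93 (SE 0.0925, edgeR adjusted p = 0.00137). Without PSD1OE pdr3Δ replicate 3 the value was -0.86 (edgeR adjusted p = 0.00397). A gene passed with an adjusted p of 0.05 or less, which 0.715% of the 6150 genes tested did, and 0.583% of 6176 without that library. The effect of the *pdr3* deletion on *VHR1* under MTSMge1-mCherry minus that under PSD1OE was -0.57 on the log2 scale (SE 0.129), given as a description.

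**Figure D1:**
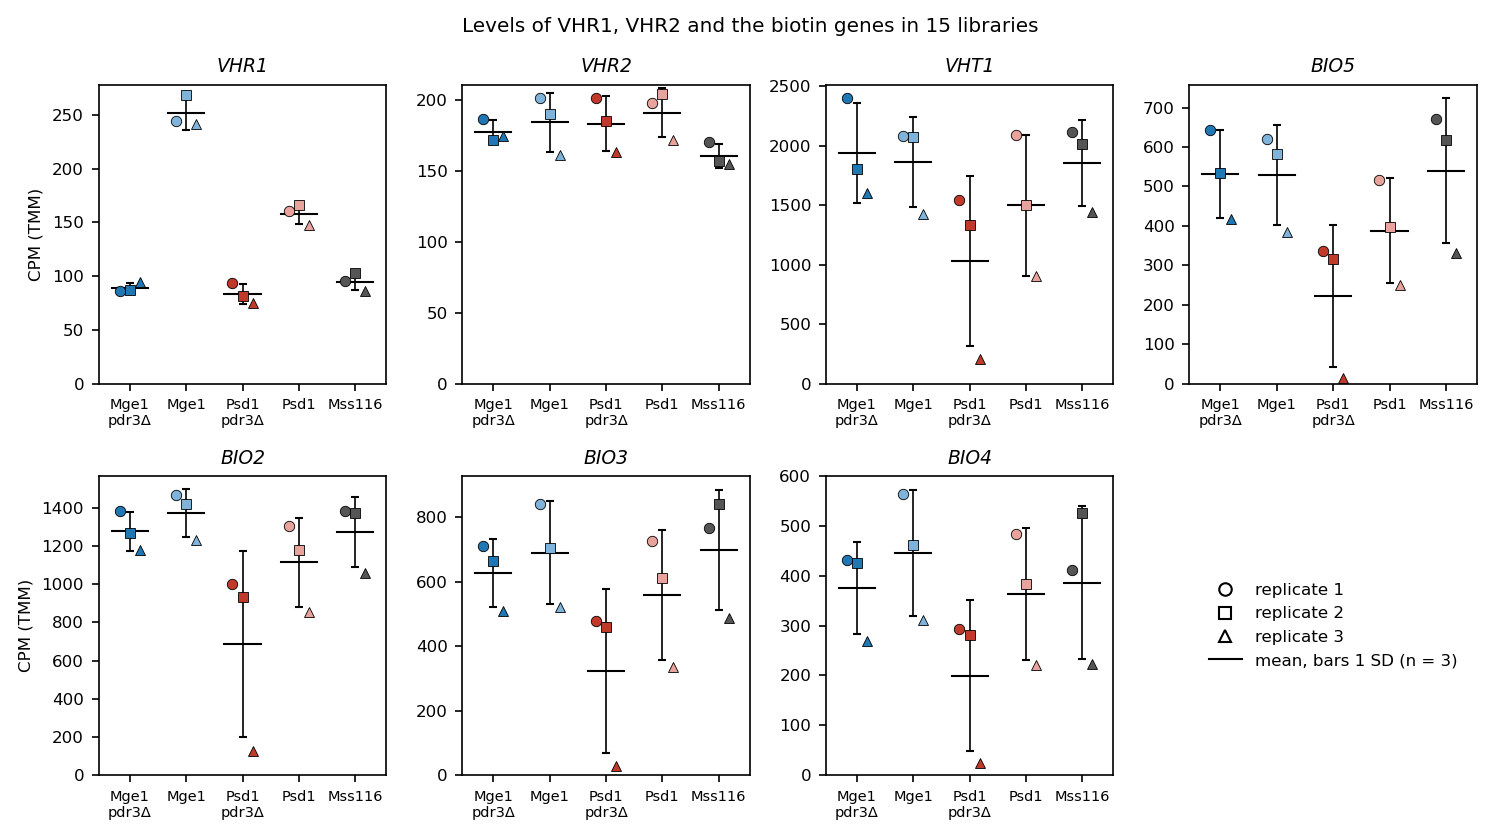
CPM (TMM-scaled) of each of the 7 genes in the 15 libraries, with knockouts left of their PDR3 partners and MTSMss116-mCherry (Mss116) last; Mge1 and Psd1 stand for MTSMge1-mCherry and PSD1OE, symbols for replicate numbers, lines for means and bars for 1 SD. VHR1 separates by group, whereas the 5 transport and synthesis genes spread by replicate number, and in PSD1OE pdr3Δ replicate 3 BIO5 stands at 13.0 CPM.

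*VHR2*, the paralog, showed no such separation. It had 187, 171 and 174 CPM in MTSMge1-mCherry pdr3Δ cells, against 201, 189.6 and 161 CPM in MTSMge1-mCherry cells. PSD1OE pdr3Δ cells had 201, 185 and 163 CPM, against 197, 204 and 172 CPM in PSD1OE cells, and MTSMss116-mCherry cells had 170.2, 157 and 155 CPM. The groups of each pair overlapped. The log2 fold change was -0.06 in both knockout comparisons (95% intervals -0.30 to 0.18 for MTSMge1-mCherry and -0.29 to 0.17 for PSD1OE, edgeR adjusted p = 0.885 and 0.793). Per kilobase of coding sequence, *VHR2* lay at 106 to 126 CPM in the group means, against 43.4 to 131 CPM for *VHR1*. In MTSMge1-mCherry cells the regulator and its paralog therefore had similar levels on this scale (131 and 121 CPM per kilobase), and in the control *VHR2* had the higher one (106, against 49.3 for *VHR1*).

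*VHT1*, the biotin symporter gene, was not separated by group as *VHR1* was. It had 2406, 1807 and 1599 CPM in MTSMge1-mCherry pdr3Δ cells, against 2083, 2074 and 1426 CPM in MTSMge1-mCherry cells. In PSD1OE pdr3Δ cells it had 1547, 1335 and 209.6 CPM, against 2089, 1500.4 and 904 CPM in PSD1OE cells. MTSMss116-mCherry cells had 2116, 2011 and 1440.25 CPM. The ranges of MTSMge1-mCherry and MTSMss116-mCherry cells all but coincided, although *VHR1* was 2.67-fold in the first. *VHT1* was 1.01-fold in MTSMge1-mCherry over MTSMss116-mCherry (95% interval 0.718 to 1.43, log2 0.02, edgeR adjusted p = 0.991) and 1.04-fold in MTSMge1-mCherry pdr3Δ over MTSMge1-mCherry (0.746 to 1.44, log2 0.05, edgeR adjusted p = 0.946).

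*BIO5*, the precursor transporter gene, had 643, 533 and 418 CPM in MTSMge1-mCherry pdr3Δ cells, against 619.5, 582 and 385 CPM in MTSMge1-mCherry cells. PSD1OE pdr3Δ cells had 337, 316 and 13.0 CPM, against 517, 397 and 249.8 CPM in PSD1OE cells. MTSMss116-mCherry cells had 670.3, 619 and 330.1 CPM. Here too the MTSMge1-mCherry groups and the control overlapped over most of their ranges. *BIO5* was 0.989-fold in MTSMge1-mCherry over MTSMss116-mCherry (95% interval 0.607 to 1.61, log2 -0.02, edgeR adjusted p = 0.995) and 1.00-fold in MTSMge1-mCherry pdr3Δ over MTSMge1-mCherry (0.705 to 1.42, log2 0.00, edgeR adjusted p = 0.999). A change within these intervals, or beyond them, could have gone without a call, because the call rests on an adjusted p. The missing call does not show that the levels were equal. The plot of each target against *VHR1* shows the libraries in vertical bands, each band a similar *VHR1* level over a wide range of the target.

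**Figure D2:**
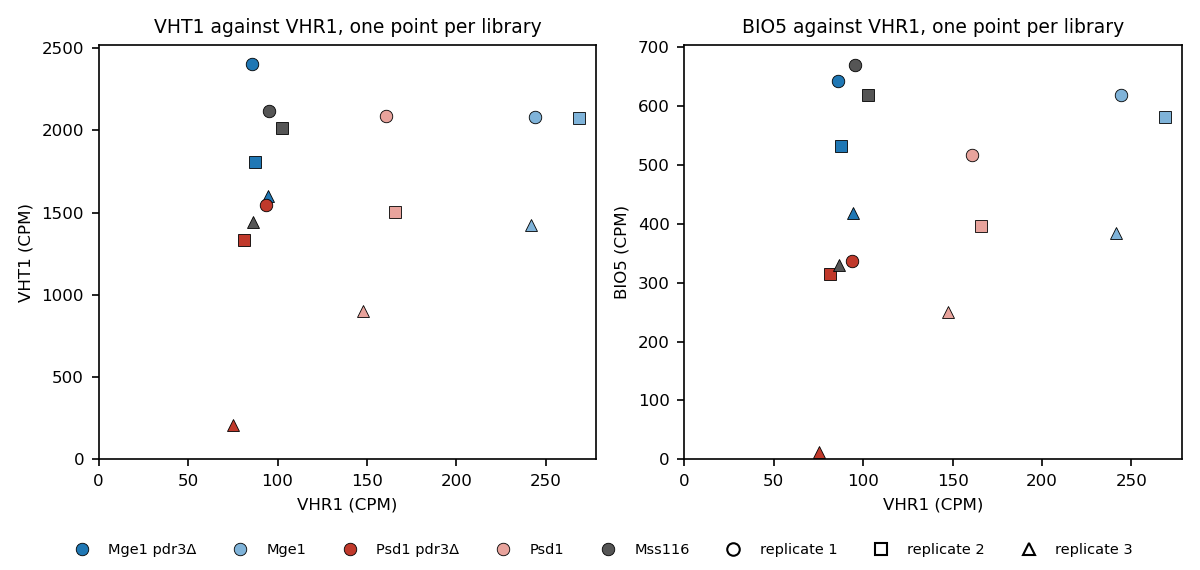
Level of VHT1 (left) and BIO5 (right) against that of VHR1, both in CPM, with 1 point for each of the 15 libraries, colours for groups and symbols for replicate numbers. MTSMge1-mCherry libraries (Mge1) lie at 241 to 269 CPM of VHR1 and those of MTSMss116-mCherry (Mss116) at 86.4 to 103 CPM, over much the same heights.

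With PSD1OE the pair of groups was wider apart and less precise. *VHT1* had a log2 fold change of -0.54 in PSD1OE pdr3Δ over PSD1OE (95% interval -1.92 to 0.83, edgeR adjusted p = 0.694) and *BIO5* one of -0.81 (-2.71 to 1.09, edgeR adjusted p = 0.665). Without PSD1OE pdr3Δ replicate 3 the values were -0.06 for *VHT1* (-0.73 to 0.60, edgeR adjusted p = 0.968) and -0.26 for *BIO5* (-0.84 to 0.33, edgeR adjusted p = 0.812). Leaving out that library alone keeps PSD1OE replicate 3, the lowest of its group. Each of the 3 knockout libraries was below the PSD1OE library of the same number for both genes. Without replicate 3 of both groups, an alternative chosen after seeing the data, the values were -0.32 for *VHT1* (-0.65 to 0.00, edgeR adjusted p = 0.251) and -0.49 for *BIO5* (-0.77 to -0.21, edgeR adjusted p = 0.0792). With the replicate number as a block, which keeps every library, the value was -0.88 for *VHT1* (-1.57 to -0.20, edgeR adjusted p = 0.0977). For *BIO5* it was -1.44 (-2.80 to -0.09, edgeR adjusted p = 0.156). Both block intervals exclude 0, and neither gene passed.

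The 3 synthesis genes did not pass in the MTSMge1-mCherry pair either, but they leaned lower in the knockout. *BIO3*, the aminotransferase gene, had 710.4, 663 and 509 CPM in MTSMge1-mCherry pdr3Δ cells, against 842, 705 and 523 CPM in MTSMge1-mCherry cells. *BIO4*, the dethiobiotin synthetase gene, had 432, 426 and 269 CPM in MTSMge1-mCherry pdr3Δ cells, against 564, 463 and 312 CPM in MTSMge1-mCherry cells. *BIO2*, the biotin synthase gene, had 1384, 1269 and 1182 CPM in MTSMge1-mCherry pdr3Δ cells, against 1470.4, 1421 and 1233 CPM in MTSMge1-mCherry cells. For each of the 3 the knockout value was below its partner of the same replicate number, and the groups overlapped. *VHT1* and *BIO5* were below their partner in replicate 2 only. The log2 fold changes were -0.14 for *BIO3*, -0.26 for *BIO4* and -0.11 for *BIO2* (edgeR adjusted p = 0.862 each). The replicate block left them at -0.13 (95% interval -0.27 to 0.01), -0.24 (-0.40 to -0.09) and -0.11 (-0.22 to 0.00), with edgeR adjusted p-values of 0.246, 0.0731 and 0.204. *VHT1* was at 0.05 and *BIO5* at 0.01 under that block.

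In PSD1OE pdr3Δ cells *BIO3* had 479.8, 458 and 27.9 CPM, against 728, 613 and 334 CPM in PSD1OE cells. *BIO4* had 293, 282 and 24.6 CPM in PSD1OE pdr3Δ cells, against 484, 384 and 221 CPM in PSD1OE cells. *BIO2* had 1003, 932 and 126 CPM in PSD1OE pdr3Δ cells, against 1306, 1182 and 857 CPM in PSD1OE cells. Replicates 1 and 2 of the knockout were below replicates 1 and 2 of PSD1OE for all 3 genes, and replicate 3 of PSD1OE was below both of these knockout libraries. Control cells with MTSMss116-mCherry had 767, 843 and 489 CPM of *BIO3*, 411, 526 and 223 CPM of *BIO4*, and 1387, 1375 and 1061 CPM of *BIO2*. The log2 fold changes of PSD1OE pdr3Δ over PSD1OE were -0.80 for *BIO3*, -0.86 for *BIO4* and -0.70 for *BIO2* (edgeR adjusted p = 0.646, 0.570 and 0.588), and -0.26, -0.34 and -0.21 without PSD1OE pdr3Δ replicate 3 (edgeR adjusted p = 0.830, 0.791 and 0.795). Under the replicate block the values were -1.39, -1.32 and -1.11 (edgeR adjusted p = 0.114, 0.0784 and 0.112). Their 95% intervals were -2.53 to -0.24, -2.26 to -0.38 and -2.02 to -0.20.

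Among the 6 genes other than *VHR1*, 0 passed an adjusted p of 0.05 in MTSMge1-mCherry over MTSMss116-mCherry, in MTSMge1-mCherry pdr3Δ over MTSMge1-mCherry, or in PSD1OE pdr3Δ over PSD1OE (edgeR and DESeq2), and 0 had an unadjusted p under 0.05 with edgeR and no replicate block. Over all genes tested 0.647%, 0.728% and 0.715% passed in these comparisons, so a count of 0 of 6 is near the background. An unadjusted p under 0.05 was held by 434 of 6184, 323 of 6184 and 811 of 6150 genes (edgeR). With the replicate number as a block, 370 genes in all passed in the MTSMge1-mCherry pair, against 45 without it, and 603 in the PSD1OE pair, against 44, with 0 of the 6 genes in either. Under the block the 5 transport and synthesis genes had unadjusted p-values of 0.0116 to 0.0389 in the PSD1OE pair (edgeR). In the MTSMge1-mCherry pair *BIO4* had 0.00630 and *BIO2* 0.0494, and the others of the 6 were over 0.05. The median log2 fold change of the 5 transport and synthesis genes was 0.02, -0.11 and -0.80 in the 3 comparisons, against 0.00, 0.00 and -0.01 over all genes tested. The last median of the 5 genes was -0.26 without PSD1OE pdr3Δ replicate 3, against 0.00 over all genes. The effect of the *pdr3* deletion on these 5 genes did not pass a test of its difference between the constructs, where the log2 differences ran from 0.60 to 0.82 (edgeR adjusted p = 1.00 each) and 0.0160% of 6238 genes passed. These differences ran from 0.09 to 0.26 without PSD1OE pdr3Δ replicate 3.

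**Figure D3:**
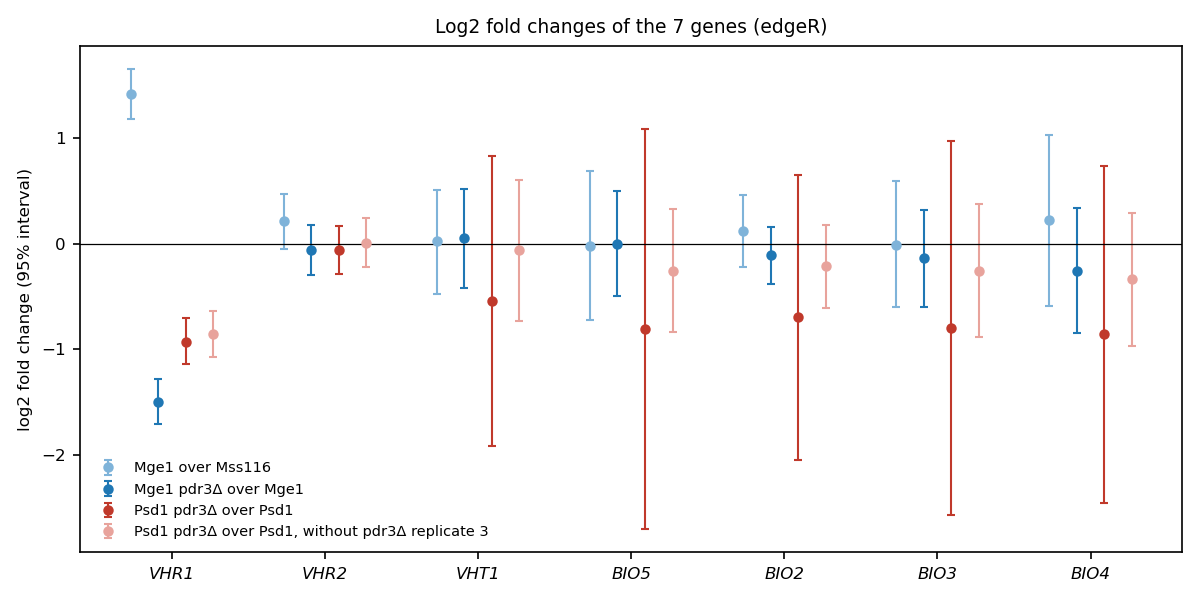
Log2 fold changes with 95% intervals (edgeR) of the 7 genes in MTSMge1-mCherry over MTSMss116-mCherry, MTSMge1-mCherry pdr3Δ over MTSMge1-mCherry, and PSD1OE pdr3Δ over PSD1OE with and without PSD1OE pdr3Δ replicate 3. The intervals of the 6 genes other than VHR1 include 0, and the VHR1 values with MTSMge1-mCherry are shown as a description; for BIO5 the PSD1OE interval shrinks to -0.84 to 0.33 without that library.

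The 5 transport and synthesis genes also varied along the replicate numbers. Replicate 3 was the lowest of its group for all 5 genes in all 5 groups. Over the 6251 genes this was so for 704 (11.3%) with replicate 3, for 432 (6.91%) with replicate 2 and for 52 (0.832%) with replicate 1. *VHT1* in replicate 3 had 75.9% of the mean of replicates 1 and 2 in MTSMge1-mCherry pdr3Δ cells and 68.6% in MTSMge1-mCherry cells. The share was 50.3% in PSD1OE cells and 69.8% in MTSMss116-mCherry cells. *BIO5* had 71.1% in MTSMge1-mCherry pdr3Δ cells, 64.0% in MTSMge1-mCherry cells, 54.6% in PSD1OE cells and 51.2% in MTSMss116-mCherry cells. *BIO4* fell between 47.5% and 62.6% in these 4 groups and *BIO3* between 49.8% and 74.1%, whereas *BIO2* kept 68.9% to 89.1%. *VHR1*, at 87.3% to 109%, and *VHR2*, at 82.5% to 97.4%, stayed closer to their other replicates. What the replicate numbers stand for beyond biological replicates is not given in the sources used here, and its part in the result was not tested.

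**Figure D4:**
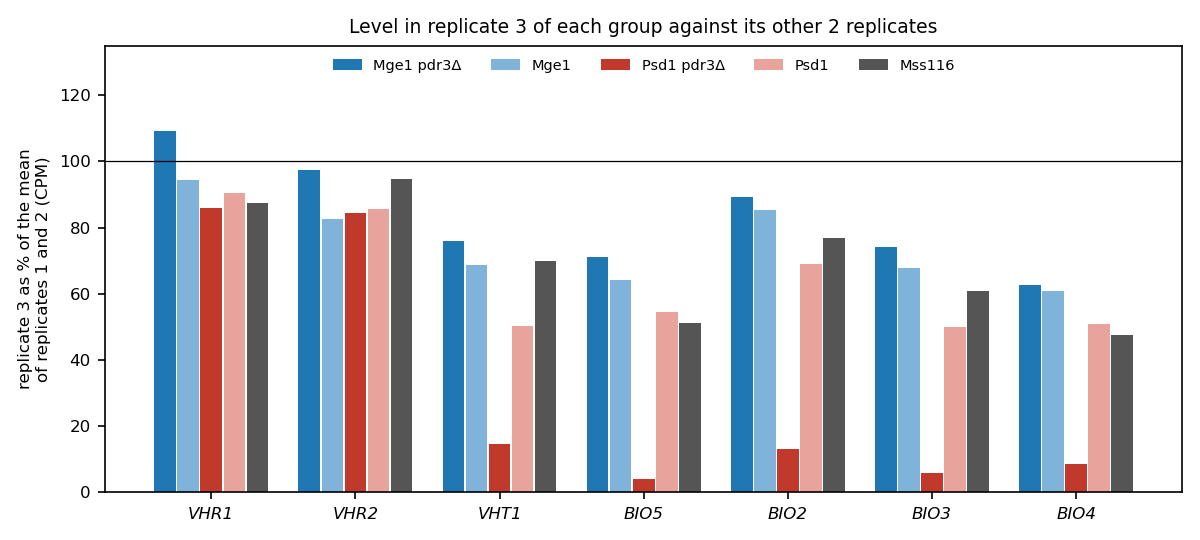
CPM in replicate 3 of each group as a percent of the mean of replicates 1 and 2 of that group, for the 7 genes; bars are single values and the line marks 100%. The 5 transport and synthesis genes lie below the line in every group, between 47.5% and 89.1% outside PSD1OE pdr3Δ and between 3.99% and 14.5% in it.

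In PSD1OE pdr3Δ replicate 3 the drop was of another size. *BIO5* had 154 counts there (13.0 CPM), 25.1-fold lower than the mean of replicates 1 and 2 of its group, and the lowest of the 14 other libraries had 249.8 CPM. *BIO3* was 16.8-fold lower than in its own replicates, *BIO4* 11.7-fold, *BIO2* 7.65-fold and *VHT1* 6.88-fold. Of the 6251 genes, 8 were at least 4-fold below all other libraries there, and 0 were at least 4-fold above. These 8 were the 5 transport and synthesis genes, the adjacent genes YJR154W (7.21-fold lower than in its own replicates) and *AAD10* (5.998-fold), and the small nucleolar RNA gene *snR35*, which had 0 counts there and no more than 1.05 CPM elsewhere. These last 3 were named after their values were seen. The other 14 libraries had 0 to 3 such genes each. *VHR1* and *VHR2* had 85.8% and 84.5% of the mean of the 2 other replicates in that library. The library had 0 counts of *PDR3* and 17554.5 CPM of *PSD1*, against 15301.4 and 17563.6 CPM in its 2 replicates, as its label has it.

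**Figure D5:**
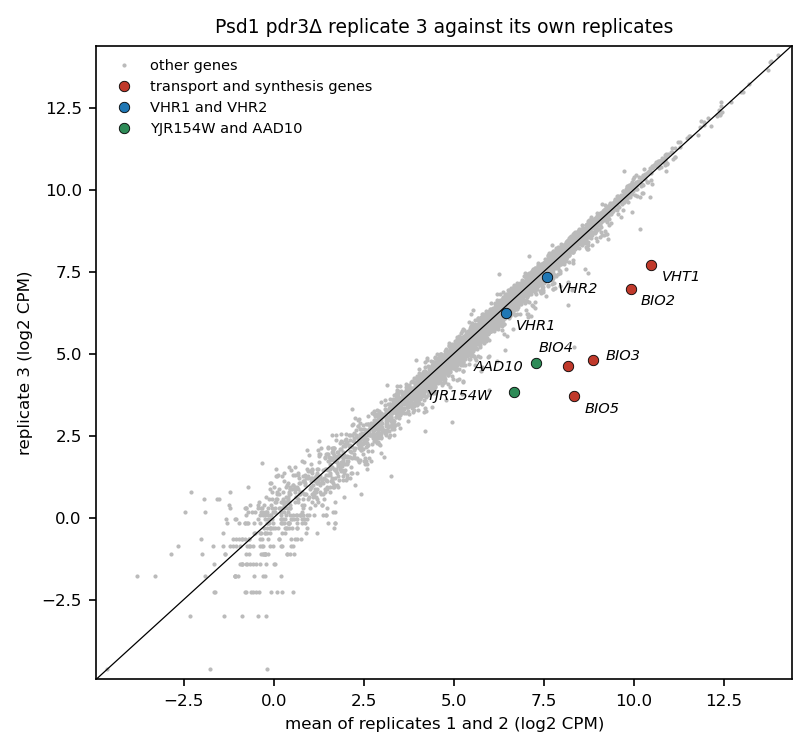
Log2 CPM of 6251 genes in PSD1OE pdr3Δ replicate 3 against the mean of replicates 1 and 2 of that group, 1 point per gene, with the diagonal of equal levels. VHT1, BIO2, BIO3, BIO4 and BIO5 lie 6.88- to 25.1-fold below their own replicates, with YJR154W and AAD10 beside them, and VHR1 and VHR2 lie near the diagonal.

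The 5 genes also changed their proportions in that library. Their summed level was 401 CPM there, against 2566 to 5580 CPM in the 14 other libraries. *VHT1* made up 52.2% of the sum, against 35.2% to 43.1% elsewhere, and *BIO5* 3.24%, against 9.20% to 12.5%. In the other libraries, then, the sum moved by more than the shares did. The 8 genes included the 4 members with VHRE or palindrome letters within 1000 bases and *BIO4*, which had none in that window. No other gene with the letters was among them. Of the 31 genes with either set of letters that were followed over all libraries, the median log2 ratio to their own replicates was -0.06, against 0.00 over all 6251 genes, and 48.4% were below both own replicates, against 36.9% of all genes. The 31 include the 4 members whose drop set the library apart, at ranks 1, 3, 6 and 11 from the lowest of all genes. Both figures are therefore a description and no test of the letters. The next lowest of the 31 after the members were *SPS2* at -0.77 (26 counts), *YAH1*, the ferredoxin gene, at -0.52, *DMA2* at -0.47 and *TEL1*, a checkpoint kinase gene, at -0.34 on the log2 scale. These 4 were named after their values were seen.

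Leaving out replicate 3 of every group narrowed the intervals of the 5 genes. This alternative was chosen after seeing the data. *BIO3* and *BIO4* then passed in PSD1OE pdr3Δ over PSD1OE, with log2 fold changes of -0.52 and -0.60 (edgeR adjusted p = 0.0356 and 0.0285), and 2.17% of 6138 genes passed. *VHT1* at -0.32 and *BIO5* at -0.49 did not pass there (edgeR adjusted p = 0.251 and 0.0792). In MTSMge1-mCherry pdr3Δ over MTSMge1-mCherry 0 of the 6 genes passed, against 97 of 6172 genes, so that count is near the background. In PSD1OE pdr3Δ over MTSMge1-mCherry pdr3Δ, *BIO5* passed at -0.86, *BIO4* at -0.59, *BIO3* at -0.56 and *BIO2* at -0.47 (edgeR adjusted p = 0.0139, 0.0176, 0.0226 and 0.0448), and 3.14% of 6173 genes passed. *VHT1*, at -0.56 (95% interval -0.89 to -0.22, edgeR adjusted p = 0.0881), did not pass there. With all libraries and no replicate block 0 of the 6 genes passed in that comparison and 0 had an unadjusted p under 0.05 (edgeR), against 3.93% of 6161 genes that passed and 1304 with such a p. The DESeq2 test gave 0 of 6 as well. With PSD1OE pdr3Δ replicate 3 alone left out, 0 passed and 3 had an unadjusted p under 0.05 (edgeR), against 973 of 6207 genes. *BIO5* was then at -0.72 and *VHT1* at -0.44.

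Between the constructs, all 5 transport and synthesis genes had lower mean levels with PSD1OE than with MTSMge1-mCherry or MTSMss116-mCherry. *VHT1* averaged 1498 ± 593 CPM in PSD1OE cells, 1861 ± 377 CPM in MTSMge1-mCherry cells and 1856 ± 364 CPM in MTSMss116-mCherry cells (SD, n = 3 each). *BIO5* averaged 388 ± 134 CPM in PSD1OE cells, 529 ± 126 CPM in MTSMge1-mCherry cells and 539.7 ± 183 CPM in MTSMss116-mCherry cells (SD, n = 3 each). None of these differences passed without a replicate block. In PSD1OE over MTSMss116-mCherry the log2 fold changes of the 5 genes ran from -0.46 for *BIO5* to -0.07 for *BIO4*, and 0 of the 6 genes passed (edgeR and DESeq2; 1 of them, *VHR2* at 0.27, had an unadjusted p under 0.05 with edgeR and no block), against 6.16% of 6168 genes. An unadjusted p under 0.05 was held by 1511 of the 6168 genes (edgeR). The replicate block changed 1 call in this comparison, *BIO5* at -0.46 (edgeR adjusted p = 0.0290, against 0.462 without the block), where 14.1% of the genes passed. Under it *VHT1* at -0.36 and *BIO3* at -0.35 had unadjusted p-values of 0.0499 and 0.0268 (edgeR), and *BIO2* and *BIO4* were over 0.05. In PSD1OE over MTSMge1-mCherry the values ran from -0.45 for *BIO5* to -0.30 for *BIO4*, and 0 of the 6 genes passed, against 4.89% of 6157 genes (edgeR; 0 at an unadjusted p under 0.05, against 1309 genes, and 0 with DESeq2). With the replicate block the 5 genes passed there, from -0.49 for *BIO5* to -0.33 for *BIO2* (edgeR adjusted p = 0.00483 to 0.0437), among 1153 genes in all. Same-numbered libraries of these groups had correlations of 0.307, 0.0602 and 0.430, the lowest under the 0.1 required for pairing.

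In the knockouts over the control, *VHT1* had a log2 fold change of 0.07 in MTSMge1-mCherry pdr3Δ cells (95% interval -0.43 to 0.57) and of -0.85 in PSD1OE pdr3Δ cells (-2.33 to 0.63), and *BIO5* had -0.01 (-0.70 to 0.67) and -1.28 (-3.49 to 0.92). Without PSD1OE pdr3Δ replicate 3, the PSD1OE pdr3Δ values were -0.38 for *VHT1* (-0.87 to 0.11) and -0.74 for *BIO5* (-1.49 to 0.01). With the replicate block and all libraries they were -1.24 (-2.31 to -0.16) and -1.99 (-3.71 to -0.27; edgeR adjusted p = 0.135 and 0.133). Under that block *VHT1*, *BIO5*, *BIO2*, *BIO3* and *BIO4* had unadjusted p-values of 0.0228 to 0.0386 in PSD1OE pdr3Δ over the control (edgeR). Of the 6 genes 0 passed in either comparison (edgeR, with 0 at an unadjusted p under 0.05 without the block, and DESeq2), against 0.0648% of 6174 genes and 5.90% of 6166 genes. An unadjusted p under 0.05 was held by 338 and 1257 of these genes (edgeR). In PSD1OE pdr3Δ over the control 0 passed without replicate 3 of the knockout as well, and 2 had an unadjusted p under 0.05 (edgeR), against 875 of 6206 genes. These comparisons share the MTSMss116-mCherry libraries with those above.

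The genes that use biotin were followed as a list of 7: the biotin ligase gene *BPL1*, the carboxylase genes *ACC1*, *HFA1*, *PYC1* and *PYC2*, the urea amidolyase gene *DUR1_2* and *ARC1*. Of these 0 passed in MTSMge1-mCherry over MTSMss116-mCherry, MTSMge1-mCherry pdr3Δ over MTSMge1-mCherry or PSD1OE pdr3Δ over PSD1OE (edgeR), with 1, 2 and 2 at an unadjusted p under 0.05. Over all genes tested 434 of 6184, 323 of 6184 and 811 of 6150 had such a p, and 0.647%, 0.728% and 0.715% passed. Both backgrounds hold for the lists below as well, and a count of 0 in them is near the passing share. The median log2 fold changes that follow are those of the 7 genes. They were 0.12, 0.11 and 0.04, and the last was 0.01 without PSD1OE pdr3Δ replicate 3. *BPL1* had the lowest value of the list in the MTSMge1-mCherry pair, -0.74 (SE 0.209, edgeR adjusted p = 0.580), and stood at -0.39 in the PSD1OE pair (SE 0.169, edgeR adjusted p = 0.378). It did not pass in either.

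Transporters of the same family as Vht1 formed a second list of 7. They were *FEN2*, *TNA1*, *DAL5*, *SEO1*, *YCT1*, *THI73* and *SOA1*. Of them 0 passed in these 3 comparisons (edgeR; 0, 1 and 1 at an unadjusted p under 0.05), with medians of -0.03, -0.10 and -0.01, the last at -0.05 without PSD1OE pdr3Δ replicate 3. *TNA1*, the nicotinic acid permease gene, was at -1.03 in the MTSMge1-mCherry pair (SE 0.437, edgeR adjusted p = 0.862). In PSD1OE over MTSMss116-mCherry 1 of the 7 passed, *SEO1* at -0.76 (edgeR adjusted p = 0.0407), against 6.16% of 6168 genes. *SEO1* was picked from the list after its value was seen. *VHT1* is also known to answer to the iron regulator Aft1, so 8 genes that answer to iron shortage were followed (*FET3*, *FTR1*, *FIT1*, *FIT2*, *FIT3*, *ARN1*, *SIT1* and *TIS11*). Of these 0 passed in the same 3 comparisons (edgeR; 0, 0 and 2 at an unadjusted p under 0.05), and their medians were -0.03, 0.21 and 0.30, the last at 0.33 without PSD1OE pdr3Δ replicate 3.

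The nearest annotated genes on either side were followed to see how far the changes reached along the chromosome. Of the 10 neighbours that are not members, 0 passed in the same 3 comparisons (edgeR; 1, 1 and 2 at an unadjusted p under 0.05), with medians of 0.05, 0.03 and 0.08, the last at 0.11 without PSD1OE pdr3Δ replicate 3. *RGI2*, which is transcribed away from *VHR1* on the other side of the interval with the PDRE letters, had log2 fold changes of 0.28, -0.43 and 0.57 (edgeR adjusted p = 0.963, 0.862 and 0.407). Its mean was higher with PSD1OE, at 22.0 ± 10.1 CPM in PSD1OE cells and 33.1 ± 7.17 CPM in PSD1OE pdr3Δ cells. Control cells had 4.84 ± 3.71 CPM, MTSMge1-mCherry cells 5.90 ± 2.88 CPM and MTSMge1-mCherry pdr3Δ cells 4.35 ± 1.75 CPM (SD, n = 3 each). YIL055C, on the other flank of *VHR1*, had 0.09, 0.00 and -0.09 (edgeR adjusted p = 0.970, 0.996 and 0.663). *GID10*, upstream of *VHT1*, had 0.33, -0.07 and -0.26 (edgeR adjusted p = 0.926, 0.958 and 0.782).

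By the likeness of their log2 CPM over the 15 libraries, *VHR1* and the 5 transport and synthesis genes sat among different genes. The 5 genes most like *VHR1* were *RSB1* (Pearson's r = 0.981), *SFT2* (0.979), *ARE2* (0.979), *YOR1* (0.978) and *SCS7* (0.9747). *RSB1* encodes a sphingoid base transporter or translocase, *YOR1* an ABC transporter, *ARE2* a sterol acyltransferase and *SCS7* a sphingolipid hydroxylase. Their log2 fold changes in PSD1OE pdr3Δ over PSD1OE ran from -1.68 for *RSB1* to -0.47 for *SFT2*, given with no test because these libraries were used to pick them. The genes most like *VHT1* were *BIO5* (r = 0.987), *BIO3* (0.983), *BIO2* (0.976), *BIO4* (0.972) and *AAD10* (0.969). Without PSD1OE pdr3Δ replicate 3, *BIO5* (0.945) and *BIO3* (0.925) were still the closest to *VHT1*, followed by its neighbour *GID10* (0.907). These values are descriptions over libraries that share groups and replicate numbers, and those of *VHT1* over 15 libraries lean on the 1 library that stood apart.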

How the data were processed

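The deposited table holds read counts per gene for 15 libraries. The authors made these counts from stranded, paired-end mRNA libraries aligned with the DRAGEN RNA application to build R64 and counted with featureCounts. The counts are whole numbers with no normalization, and whether the counting used strand is not given in the sources used here. Of the 7127 gene identifiers 6035 matched the RefSeq annotation of R64.

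Each comparison was fitted on its own groups with the quasi-likelihood test of edgeR 4.0.16 (R 4.3.3) after TMM scaling and filterByExpr. P-values were adjusted over all genes of the fit by the Benjamini-Hochberg method. A gene passed with an adjusted p of 0.05 or less. SEs and 95% intervals derive from the F statistic. The difference of the *pdr3* effects was an interaction over 4 groups. The fits were tested on simulated data. Total counts ran from 9128344 to 15953662 (median 12181171), and 3 replicates per group limit the precision.

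The members and lists were chosen with earlier results of these data known. Genes named are the members, their nearest neighbours, the lists, and the 5 genes most like *VHR1*. Others were chosen after their values were seen. Alternatives were DESeq2 1.42.0, RLE or total library size, no filter on low values or a minimum of 10 counts per library, a single fit of all 5 groups, each library left out in turn, a replicate block, and a promoter window of 500 bases. Replicate 3 of every group was left out together after seeing the data.

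Same-numbered libraries deviated together (each of 3 correlations over 0.1) in MTSMge1-mCherry pdr3Δ over MTSMge1-mCherry (lowest 0.186), PSD1OE pdr3Δ over PSD1OE (0.151), PSD1OE over MTSMss116-mCherry (0.108) and PSD1OE pdr3Δ over MTSMss116-mCherry (0.122). Pairing rests on these shared numbers, which GEO's labels give. Levels per kilobase use coding lengths.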

Additional observations from a re-analysis of the deposited data

How the results depend on the processing

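In PSD1OE pdr3Δ over PSD1OE *VHR1* kept its direction under each alternative, with log2 fold changes of -1.02 to -0.86 as each library was left out in turn. That is a description and no independent test, since its direction was known beforehand. The count of the other 6 genes that passed was 0 in all comparisons and stayed 0 with each library left out. It rose to 1 under the replicate block in PSD1OE over MTSMss116-mCherry (*BIO5*). Under the block in PSD1OE over MTSMge1-mCherry it rose to 5, where 1153 of 6157 genes passed. Without replicate 3 of every group, it rose to 2 in PSD1OE pdr3Δ over PSD1OE and to 4 in PSD1OE pdr3Δ over MTSMge1-mCherry pdr3Δ. In PSD1OE over MTSMge1-mCherry the correlations were 0.307, 0.0602 and 0.430, so the rule of each over 0.1 was not met. The block values there were -0.49 for *BIO5*, -0.38 for *VHT1*, -0.36 for *BIO3*, -0.34 for *BIO4* and -0.33 for *BIO2* (edgeR adjusted p = 0.00483, 0.0437, 0.0309, 0.0165 and 0.0156). Correlations were also lowest at -0.0981, 0.0727 and 0.0396 in MTSMge1-mCherry over MTSMss116-mCherry, MTSMge1-mCherry pdr3Δ over MTSMss116-mCherry and PSD1OE pdr3Δ over MTSMge1-mCherry pdr3Δ. The block changed no other call of the 6 genes. The cause was not tested.

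Values near 0 changed sign. In MTSMge1-mCherry over MTSMss116-mCherry total library size gave 0.02 for *BIO5* and 0.03 for *BIO3*, the block 0.02 and 0.00, and no filter 0.00 for *VHT1*. In MTSMge1-mCherry pdr3Δ over MTSMge1-mCherry *BIO5* had 0.00 with total library size and -0.04 without replicate 3 of every group. In MTSMge1-mCherry pdr3Δ over MTSMss116-mCherry *BIO5* had 0.01 with total library size and 0.03 with the block, *BIO4* 0.02 with the block, and *BIO2* -0.06 without replicate 3 of every group, where the *VHR2* interaction was -0.07. With each library left out in turn, *VHT1* ran from -0.15 to 0.15, *BIO5* from -0.28 to 0.16, *BIO3* from -0.22 to 0.14, *BIO4* from -0.07 to 0.50 and *BIO2* from 0.00 to 0.18 in MTSMge1-mCherry over MTSMss116-mCherry. In MTSMge1-mCherry pdr3Δ over MTSMge1-mCherry the ranges were -0.12 to 0.17 for *VHT1*, -0.18 to 0.14 for *BIO5*, -0.31 to 0.03 for *BIO3* and -0.14 to 0.01 for *VHR2*. In MTSMge1-mCherry pdr3Δ over MTSMss116-mCherry they were -0.12 to 0.17 for *VHT1*, -0.27 to 0.16 for *BIO5*, -0.11 to 0.07 for *BIO2*, -0.36 to 0.01 for *BIO3* and -0.32 to 0.25 for *BIO4*. *BIO4* ran from -0.36 to 0.21 in PSD1OE over MTSMss116-mCherry. *VHR2* ran from -0.14 to 0.01 in PSD1OE pdr3Δ over PSD1OE, from -0.04 to 0.13 in PSD1OE over MTSMge1-mCherry, from -0.03 to 0.11 in PSD1OE pdr3Δ over MTSMge1-mCherry pdr3Δ and from -0.08 to 0.09 in the interaction. *BIO5* in PSD1OE pdr3Δ over PSD1OE ran from -1.25 to -0.26 and *VHT1* from -0.96 to -0.06.

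The number of all genes that passed moved more. DESeq2 gave 118 in MTSMge1-mCherry over MTSMss116-mCherry (40 in edgeR), 77 in MTSMge1-mCherry pdr3Δ over MTSMge1-mCherry (45), 124 in PSD1OE pdr3Δ over PSD1OE (44), 906 in PSD1OE over MTSMss116-mCherry (380), 634 in PSD1OE over MTSMge1-mCherry (301), 573 in PSD1OE pdr3Δ over MTSMge1-mCherry pdr3Δ (242), 669 in PSD1OE pdr3Δ over MTSMss116-mCherry (364), 93 in MTSMge1-mCherry pdr3Δ over MTSMss116-mCherry (4) and 12 in the interaction (1). The block gave 867 in PSD1OE over MTSMss116-mCherry and 625 in PSD1OE pdr3Δ over MTSMss116-mCherry. With 1 library left out, PSD1OE over MTSMss116-mCherry gave 50 (without PSD1OE replicate 2) to 1503 (without MTSMss116-mCherry replicate 2), PSD1OE pdr3Δ over MTSMss116-mCherry gave 3 (without PSD1OE pdr3Δ replicate 1) to 936 (without MTSMss116-mCherry replicate 2), and PSD1OE pdr3Δ over PSD1OE gave 27 (without PSD1OE pdr3Δ replicate 1) to 122 (without PSD1OE replicate 3). Of the 5 genes most like *VHR1*, 1 was also among the 5 by Spearman's rho. With a window of 500 bases 4 members held searched letters, against 5.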

Other observations

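YJR154W and *AAD10* (YJR155W) were the genes beside the biotin genes that dropped most in PSD1OE pdr3Δ replicate 3, and they were chosen after their values were seen. YJR154W had 92.4, 112 and 14.2 CPM in PSD1OE pdr3Δ cells, against 204, 169.8 and 72.2 CPM in PSD1OE cells. *AAD10*, which encodes a putative aryl-alcohol dehydrogenase, had 158, 156 and 26.2 CPM in PSD1OE pdr3Δ cells, against 284, 226 and 111 CPM in PSD1OE cells. In both genes all 3 knockout libraries were below the PSD1OE library of the same number. The log2 fold changes were -1.02 for YJR154W (SE 0.620, edgeR adjusted p = 0.457) and -0.87 for *AAD10* (SE 0.576, edgeR adjusted p = 0.489), and neither passed. Replicate 3 was the lowest of its group for both genes in all 5 groups, as for the 5 transport and synthesis genes.

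Over the 14 other libraries *INO2*, a regulator of phospholipid synthesis, was among the genes most like *BIO5* (Pearson's r = 0.924, Spearman's rho = 0.956) and *VHT1* (r = 0.886, rho = 0.952). These are descriptions over libraries that share groups and replicate numbers, and *INO2* was chosen after its values were seen.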
